A study of Mus musculus with 4 samples.

Results

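The genes described here belong to the insulin-like growth factor (IGF) axis. They are 10 of the 32285 genes counted, matched by symbol in all 4 libraries: the ligand *Igf1*, its receptor *Igf1r*, the binding proteins *Igfbp2*, *Igfbp3*, *Igfbp4*, *Igfbp5* and *Igfbp6*, the related *Igfbp7*, the protease *Pappa* and its inhibitor *Stc1*. They were chosen on their measured levels in these same libraries, so every difference between libraries below is a description and carries no test.

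The libraries hold cultured mouse cells, 1 library per group. DFAT cells are fibroblast-like cells that adipocytes turn into when they are kept in ceiling culture, a flask filled with medium in which floating adipocytes attach to the upper wall. The iWAT_DFAT group came from adipocytes of inguinal (subcutaneous) white fat and the eWAT_DFAT group from adipocytes of epididymal (visceral) white fat. The iWAT_SVF and eWAT_SVF groups are primary cultures of the stromal vascular fraction, the non-adipocyte cells of these 2 depots. The study's text gives chow-fed male C57BL/6J mice as the source. No genetic change or drug is named for any group. The age of these mice and the number of mice behind each library are not given in the sources used here. All 4 groups were grown on plastic, detached with trypsin and sorted after staining with 7-AAD, a dye for dead cells. Messenger RNA was counted with the 10x Genomics 3′ chemistry as unique molecular identifiers (UMIs), each 1 captured molecule.

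Cells were barcodes with 5000 to 75000 UMIs, 200 to 7500 genes and under 10% mitochondrial UMIs. There were 7629 cells in iWAT_DFAT, 6464 in eWAT_DFAT, 7424 in iWAT_SVF and 6745 in eWAT_SVF, with medians of 22111 to 27617 UMIs per cell. The 4 libraries held 211396227 to 242282812 UMIs in all, and 13 to 20 cell barcodes were shared by any pair of libraries. Of 8 stromal progenitor markers (*Pdgfra*, *Pdgfrb*, *Col1a1*, *Col1a2*, *Dcn*, *Lum*, *Cd34* and *Ly6a*), 7 or 8 reached 5 CPM in every library. Their summed level was 2079 CPM in eWAT_DFAT and 5817 to 6727 CPM in the other libraries. A cell was set apart as another type when it had UMIs of at least 4 of 8 markers of endothelial, mesothelial, glial, pericyte, immune or adipocyte cells, and more than of any other of these types. Between 109 and 260 cells per library were 1 marker short of this limit. The cells set apart held 0.849% of all UMIs in iWAT_DFAT, 5.75% in eWAT_DFAT, 2.04% in iWAT_SVF and 8.12% in eWAT_SVF.

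IGF1 is a secreted growth factor that acts through the receptor tyrosine kinase IGF1R and, in fat tissue, is known as a signal for preadipocyte growth and differentiation. Outside the cell most IGF is held by binding proteins, which prolong its life and keep it from the receptor until it is released. Pappalysin, the product of *Pappa*, cuts IGFBP4 and IGFBP5 and so frees IGF, and stanniocalcin 1, the product of *Stc1*, blocks pappalysin. IGFBP7 binds IGF weakly and is best known as a matrix-associated protein.

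*Igf1*, *Igfbp2*, *Igfbp4*, *Igfbp6* and *Pappa* were at least 2-fold lower in DFAT than in SVF cells of both depots. RefSeq promoter sequences (GRCm38.p6) were found for 8 of the 10 genes, with no entry for *Pappa* and *Stc1*. The promoters of the other 4 genes of that pattern are shown so that the start regions of genes that moved together can be compared. Each line holds 250 bases before and 50 bases after the annotated start, 5′ to 3′. Capitals mark matches, on either strand, to 4 motifs. These were the TATA box, spelled TATAAA, the CCAAT box, spelled as named, and the GC box, spelled GGGCGG. The last was a loose AP-1-like pattern, spelled TGANTCA with any base at N.
*Igf1*, chr10:87860861-87861160, plus strand: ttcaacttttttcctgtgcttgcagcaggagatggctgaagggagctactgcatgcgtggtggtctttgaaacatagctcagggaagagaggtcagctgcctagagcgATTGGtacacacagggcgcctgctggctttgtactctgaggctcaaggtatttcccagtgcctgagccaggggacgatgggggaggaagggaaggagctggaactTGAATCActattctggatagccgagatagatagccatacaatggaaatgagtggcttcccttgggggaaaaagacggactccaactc
*Igfbp2*, chr1:72824230-72824529, plus strand: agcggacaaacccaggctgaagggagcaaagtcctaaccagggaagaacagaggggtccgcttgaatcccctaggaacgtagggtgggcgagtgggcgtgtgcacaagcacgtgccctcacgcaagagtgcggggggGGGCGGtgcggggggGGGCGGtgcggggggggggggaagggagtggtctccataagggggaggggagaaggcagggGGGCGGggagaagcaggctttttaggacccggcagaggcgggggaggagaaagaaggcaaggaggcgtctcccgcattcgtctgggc
*Igfbp4*, chr11:99040994-99041293, plus strand: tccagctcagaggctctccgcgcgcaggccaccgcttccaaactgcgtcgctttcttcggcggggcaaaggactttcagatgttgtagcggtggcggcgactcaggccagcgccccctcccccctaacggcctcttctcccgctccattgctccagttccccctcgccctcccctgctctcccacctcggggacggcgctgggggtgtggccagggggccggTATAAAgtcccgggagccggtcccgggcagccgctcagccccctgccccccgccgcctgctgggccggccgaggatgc
*Igfbp6*, chr15:102143936-102144235, plus strand: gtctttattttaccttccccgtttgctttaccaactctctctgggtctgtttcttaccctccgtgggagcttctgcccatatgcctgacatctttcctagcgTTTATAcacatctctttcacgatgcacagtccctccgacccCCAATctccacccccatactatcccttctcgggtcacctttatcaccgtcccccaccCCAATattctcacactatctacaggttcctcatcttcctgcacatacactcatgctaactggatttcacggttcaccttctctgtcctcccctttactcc
No motif was found in all 4 windows. The *Igfbp4* window had a TATA box with its first base 28 bases before the start. The *Igfbp6* window had 2 CCAAT boxes and 1 match to TATAAA. That match lay on the other strand, 148 bases before the start, unlike the one of *Igfbp4*. The *Igfbp6* window also ends before the gene start given for *Igfbp6* below, and the *Igf1* window begins after the one given for *Igf1*. *Igfbp2* had 3 GC boxes in the window of the start shown, which is 1 of its 2 RefSeq starts. The window of the other *Igfbp2* start, not shown, had 1 match to TGANTCA, with G at N. *Igf1* had 1 CCAAT box and 1 match to TGANTCA, with A at N. Among all 32851 promoters, 13.6% held a TATA box, 37.4% a CCAAT box, 35.7% a GC box and 7.81% a TGANTCA match, so single matches are common. A match here is a run of letters and does not show that a factor was bound.

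Levels are UMIs per 1000000 UMIs (CPM) summed over the cells of a library. They are shown with exact 95% Poisson intervals, and ratios with exact conditional binomial 95% intervals. These intervals hold counting error only. Differences between cultures, mice or runs were not measured, and fewer cells making a transcript and less transcript per cell cannot be told apart by the shares of cells with a UMI given below, since both lower them. Genes were read as different at 2-fold or more (a log2 ratio of at least 1 in size) with 5 CPM or more in the higher library. In droplets with 1 to 100 UMIs, which hold free RNA, the 40 levels (10 genes in 4 libraries) were close to those in cells, with ratios of cells over droplets from 0.618 to 2.01, so levels near 0 in a cell type can be stray transcripts. Each library enters 2 of the 4 comparisons, so these are not independent.

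**Figure D1:**
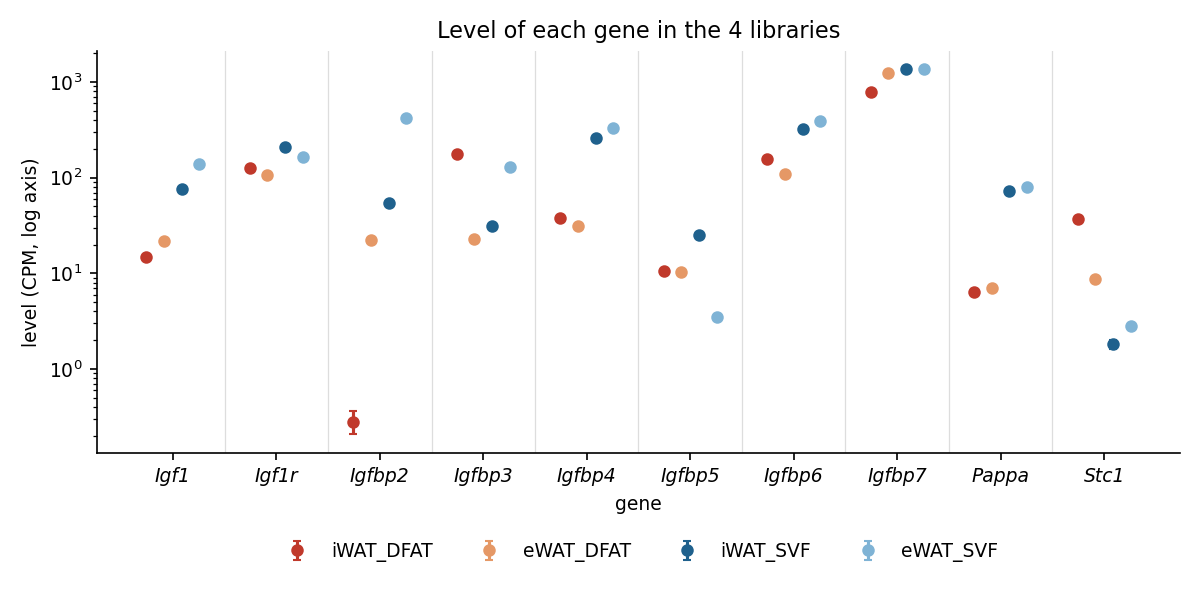
Level of each of the 10 genes in each library, in CPM on a log axis, with bars for the 95% Poisson interval (smaller than most points). *Igfbp2* in iWAT_DFAT, at 0.278 CPM, lies far below all other points, and the SVF libraries lie above both DFAT libraries for *Igf1*, *Igf1r*, *Igfbp2*, *Igfbp4*, *Igfbp6*, *Igfbp7* and *Pappa*.

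The ligand *Igf1* (chromosome 10, 87858265 to 87937042, plus strand, mm10) was counted at 15.0 CPM in iWAT_DFAT, 21.7 in eWAT_DFAT, 75.6 in iWAT_SVF and 139 in eWAT_SVF. Both SVF libraries were above both DFAT libraries, and within each cell kind the epididymal library was the higher. DFAT cells were 5.04-fold lower in iWAT (95% interval 4.84 to 5.25) and 6.42-fold lower in eWAT (6.21 to 6.64). The depot difference stayed under 2-fold, at a log2 ratio of iWAT over eWAT of -0.53 in DFAT and -0.88 in SVF cells. After each cell was thinned to 5000 UMIs, 6.25% of iWAT_DFAT, 9.21% of eWAT_DFAT, 24.9% of iWAT_SVF and 39.5% of eWAT_SVF cells had an *Igf1* UMI, so the order of the shares was that of the levels. Without thinning, the shares were 17.2%, 26.9%, 58.9% and 75.4%. Endothelial-marker cells, taken here as a reference for stray transcripts, had thinned shares of 10.0% in iWAT_DFAT (20 cells), 4.14% in eWAT_DFAT (145 cells), 21.4% in iWAT_SVF (56 cells) and 12.9% in eWAT_SVF (140 cells). By level, these cells were below the cells outside all marker gates, with the counting interval not reaching those, in eWAT_DFAT (13.2 against 21.1 CPM), iWAT_SVF (46.5 against 76.3) and eWAT_SVF (45.9 against 144). In iWAT_DFAT the reference rests on 8 UMIs (19.2 CPM, 8.29 to 37.8, against 14.8), and nothing is read from it. The median depths of the reference cells were 17487, 11794, 15997 and 14844 UMIs before thinning, against 22150, 27866, 25189 and 28129 in the cells outside all marker gates.

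The receptor *Igf1r* (chromosome 7, 67952827 to 68233668, plus strand) varied least after *Igfbp7*. Its level was 127 CPM in iWAT_DFAT, 108 in eWAT_DFAT, 208 in iWAT_SVF and 163 in eWAT_SVF. Highest over lowest was 1.94-fold, and the inguinal library was higher than the epididymal one in both cell kinds, at log2 ratios of 0.24 in DFAT and 0.35 in SVF cells. DFAT cells were lower at log2 ratios of -0.72 in iWAT and -0.60 in eWAT, below the 2-fold limit. Only 5.98% of this 281 kb gene is exonic, and the counts include introns per the Methods. The header of iWAT_SVF names another Cell Ranger version (4) than those of the other libraries (7.1.0). Genes with 200 kb or more of intron had a median log2 ratio of 0.19 in iWAT_SVF over eWAT_SVF, against -0.00056 for genes with under 10 kb. In iWAT_DFAT over iWAT_SVF the same medians were 0.36 and -0.04, and in iWAT_DFAT over eWAT_DFAT, which does not involve that library, 0.40 and -0.01. Long-intron genes were thus higher in iWAT_SVF than in eWAT_SVF and lower than in iWAT_DFAT. Whether introns were counted alike in the 4 libraries cannot be told from the counts, which bears on the ratios to iWAT_SVF of every member that is mostly intron, with *Igfbp7* (2.06% exonic), *Pappa* (4.73%), *Igf1r* and *Igfbp2* (6.60%) the lowest in exonic share.

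*Igfbp2* (chromosome 1, 72824503 to 72852474, plus strand) had the widest range of the 10 genes. It was counted at 0.278 CPM in iWAT_DFAT, 22.2 in eWAT_DFAT, 54.4 in iWAT_SVF and 417 in eWAT_SVF. The value in iWAT_DFAT rests on 51 UMIs in 28 of 7629 cells, against 82456 UMIs in eWAT_SVF. Highest over lowest was 1503-fold. Epididymal cells were higher in both kinds, 80.0-fold in DFAT cells (60.7 to 107.6) and 7.68-fold in SVF cells (7.53 to 7.84). DFAT cells were lower in both depots, 195.7-fold in iWAT (148.8 to 263.0) and 18.8-fold in eWAT (18.2 to 19.4). Thinned shares of cells with a UMI ran from 0.118% (95% interval 0.0540 to 0.224) in iWAT_DFAT over 4.53% in eWAT_DFAT and 8.61% in iWAT_SVF to 35.6% (34.5 to 36.8) in eWAT_SVF. Unthinned, the shares were 0.367%, 9.78%, 16.6% and 52.9%. In endothelial-marker cells the thinned shares were 0% of 20 cells in iWAT_DFAT, which allows up to 15.0%, 0.690% in eWAT_DFAT, 1.79% in iWAT_SVF and 7.86% in eWAT_SVF. Even in eWAT_SVF the transcript was uneven: 280 cells (4.15%) held 50% of its thinned UMIs, and 1 cell reached 86 of 5000 UMIs.

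*Igfbp3* (chromosome 11, 7206086 to 7213923, minus strand), whose product is the main carrier of IGF in serum, had the widest turn of the depot order between the kinds of cell. Its level was 178 CPM in iWAT_DFAT, 22.6 in eWAT_DFAT, 30.9 in iWAT_SVF and 130 in eWAT_SVF. The inguinal library was 7.89-fold higher among DFAT cells (7.64 to 8.15), whereas among SVF cells the epididymal library was 4.21-fold higher (4.10 to 4.33). DFAT against SVF therefore gave log2 ratios of 2.53 in iWAT and -2.53 in eWAT. Cells with a UMI after thinning made up 42.4% of iWAT_DFAT, 8.11% of eWAT_DFAT, 10.7% of iWAT_SVF and 24.7% of eWAT_SVF. Unthinned, the shares were 70.9%, 22.6%, 26.0% and 45.9%. Endothelial-marker cells (20, 145, 56 and 140 cells in the same order) had thinned *Igfbp3* shares of 75.0%, 15.2%, 16.1% and 20.7%. Their *Igfbp3* levels were 1209, 39.7, 57.7 and 58.5 CPM, against 177, 22.0, 30.0 and 128 CPM in the cells outside all marker gates. In 3 of the 4 libraries these cells thus held more *Igfbp3* than the rest, and they are not a reference for stray transcripts of this gene. In iWAT_DFAT 768 cells (10.1%) held 50% of its UMIs, while in eWAT_SVF 296 cells (4.39%) did, so the lower of these levels was also the more uneven one.

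*Igfbp4* (chromosome 11, 99041244 to 99054392, plus strand), a substrate of pappalysin, was counted at 38.0 CPM in iWAT_DFAT, 31.6 in eWAT_DFAT, 257 in iWAT_SVF and 333 in eWAT_SVF. DFAT cells were 6.77-fold lower in iWAT (6.60 to 6.94) and 10.5-fold lower in eWAT (10.3 to 10.8). The depots differed by a log2 ratio of 0.27 in DFAT cells and -0.37 in SVF cells. Among sets of at least 50 cells set apart by markers, its level was highest in mesothelial-marker cells: 299 CPM in the 66 such cells of eWAT_DFAT and 623 CPM in the 497 of eWAT_SVF. In eWAT_SVF these cells held 6.36% of all UMIs and 11.9% of those of *Igfbp4*. *Pdgfra*, a stromal marker, had a UMI in 84.9% and 73.8% of these 2 sets of cells, so the gate does not separate the types cleanly.

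*Igfbp6* (chromosome 15, 102144362 to 102149511, plus strand), whose product binds IGF2 more tightly than IGF1, was counted at 157 CPM in iWAT_DFAT, 108 in eWAT_DFAT, 324 in iWAT_SVF and 393 in eWAT_SVF. DFAT cells were 2.07-fold lower in iWAT (2.04 to 2.10) and 3.63-fold lower in eWAT (3.57 to 3.68). Its log2 ratio of -1.05 in iWAT lay just inside the 2-fold limit. The values just outside it were -0.88 for *Igf1* between the SVF libraries and -0.78 for *Igfbp7* between the inguinal libraries. In iWAT_DFAT, eWAT_DFAT, iWAT_SVF and eWAT_SVF, 1068, 659, 1407 and 1184 cells held 50% of its UMIs, a number that also rises with level.

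*Igfbp7* (chromosome 5, 77349240 to 77408041, minus strand) was counted at 789 CPM in iWAT_DFAT, 1235 in eWAT_DFAT, 1354 in iWAT_SVF and 1363 in eWAT_SVF. It had a UMI in 95.2% to 98.3% of thinned cells in every library, and in 97.1% to 100% of endothelial-marker cells, and no comparison reached 2-fold. iWAT_DFAT stood lowest, at a log2 ratio of -0.65 to eWAT_DFAT and -0.78 to iWAT_SVF. The SVF libraries differed by a log2 ratio of -0.0096. Among marker-gated cells of eWAT_DFAT it was at 3485 CPM in endothelial-marker and 3710 CPM in pericyte-marker cells, and at 772 CPM in mesothelial-marker cells.

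**Figure D2:**
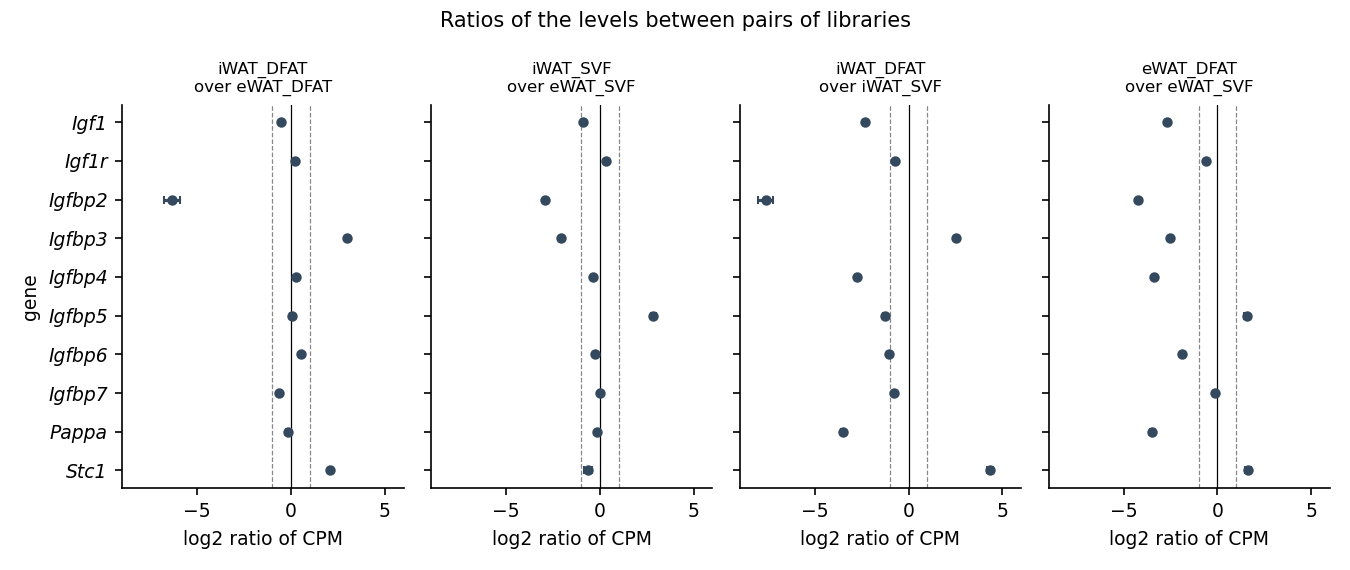
Log2 ratio of CPM for each gene in 4 pairs of libraries, with 95% counting intervals and dashed lines at 2-fold. *Igfbp3* lies on the right for iWAT and on the left for eWAT when DFAT cells are set against SVF cells, and *Pappa* lies at -3.50 in both.

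*Pappa* (chromosome 4, 65124174 to 65357509, plus strand) was counted at 6.45 CPM in iWAT_DFAT, 7.096 in eWAT_DFAT, 73.2 in iWAT_SVF and 80.5 in eWAT_SVF. The DFAT libraries lay far below the SVF libraries, by 11.4-fold in iWAT (10.7 to 12.1) and by 11.4-fold in eWAT (10.7 to 12.01). The depots were close, with a log2 ratio of -0.14 in either kind of cell. A UMI was found in 2.36% and 2.95% of thinned DFAT cells and in 23.6% and 24.9% of thinned SVF cells, iWAT first. Endothelial-marker cells had thinned shares of 0% of 20 cells (which allows up to 15.0%), 0.690%, 0% of 56 cells (up to 5.36%) and 5.71% in the order iWAT_DFAT, eWAT_DFAT, iWAT_SVF and eWAT_SVF. They held 0, 2, 9 and 51 *Pappa* UMIs. The upper ends of the exact Poisson intervals of their levels were 8.85, 3.09, 15.9 and 25.6 CPM. For 0 UMIs this end is wider than the limit of 3 counts used for shares. The cells outside all marker gates were at 6.10, 5.90, 72.4 and 84.5 CPM, so nothing is read from this reference in iWAT_DFAT. Only 4.73% of this 233 kb gene is exonic, and the deposited counts do not separate exons from introns. In eWAT_DFAT 15.3% of its UMIs were in the 66 mesothelial-marker cells, which held 0.910% of all UMIs. The 497 mesothelial-marker cells of eWAT_SVF went the other way, at 37.7 CPM against 84.5 outside all marker gates. Glial-marker cells were above the cells outside all gates in both inguinal libraries, at 281 CPM in iWAT_DFAT (17 cells) and 177 CPM in iWAT_SVF (139 cells). Without all gated cells the log2 ratio of eWAT_DFAT to eWAT_SVF was -3.84. The log2 ratio of iWAT over eWAT was then 0.05 in DFAT and -0.22 in SVF cells, so its equal value in both kinds depends on the gated cells.

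*Stc1* (chromosome 14, 69029238 to 69041804, plus strand) was higher in both DFAT libraries than in both SVF libraries. It was counted at 36.9 CPM in iWAT_DFAT, 8.73 in eWAT_DFAT, 1.81 in iWAT_SVF and 2.80 in eWAT_SVF. DFAT cells were 20.4-fold higher in iWAT (18.4 to 22.7) and 3.12-fold higher in eWAT (2.83 to 3.44), and iWAT_DFAT was 4.23-fold above eWAT_DFAT (4.01 to 4.47). Both SVF levels were under 5 CPM, so their difference (log2 ratio -0.63) was not read. In iWAT_DFAT 13.3% of thinned cells had an *Stc1* UMI, and in the other libraries 3.28%, 0.768% and 1.35%. Unthinned, the shares were 37.1%, 10.7%, 2.95% and 4.27% in the order iWAT_DFAT, eWAT_DFAT, iWAT_SVF and eWAT_SVF. Thinned shares in the same endothelial-marker cells were 30.0%, 3.45%, 1.79% and 0% of 140 cells, which allows up to 2.14%. Their *Stc1* levels rest on 18, 16, 4 and 6 UMIs, with counting intervals that hold the level of the cells outside all marker gates in every library, and nothing is read from this reference. In eWAT_DFAT 14.1% of the 64 pericyte-marker cells had an *Stc1* UMI after thinning, and the 66 mesothelial-marker cells had none (up to 4.55%).

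*Igfbp5* (chromosome 1, 72857932 to 72874884, minus strand) lies next to *Igfbp2*. The genes point toward each other, 5457 bases apart, with no annotated gene between them. *Igfbp5* was counted at 10.6 CPM in iWAT_DFAT, 10.3 in eWAT_DFAT, 25.4 in iWAT_SVF and 3.48 in eWAT_SVF. The DFAT libraries could not be told apart even by counting error (log2 ratio 0.03, interval -0.06 to 0.13), whereas iWAT_SVF was 7.28-fold above eWAT_SVF (6.72 to 7.89). This was the depot opposite to that of *Igfbp2*. DFAT over SVF was -1.26 on the log2 scale in iWAT and 1.57 in eWAT.

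These levels came from very few cells. The fewest cells that together held 50% of the thinned *Igfbp5* UMIs were 12 in iWAT_DFAT, 18 in eWAT_DFAT, 42 in iWAT_SVF and 9 in eWAT_SVF. A single cell reached 46, 31, 45 and 18 of 5000 UMIs in these libraries. In iWAT_SVF 139 glial-marker cells, which held 1.04% of all UMIs, held 45.5% of those of *Igfbp5*. Their *Igfbp5* level was 1110 CPM and 74.8% of them had a UMI after thinning. The 17 glial-marker cells of iWAT_DFAT had 662 CPM and 8.13% of the library's *Igfbp5* UMIs. In eWAT_SVF, where no glial-marker cell was found, 65.8% of the *Igfbp5* UMIs were in the 497 mesothelial-marker cells, at 36.1 CPM. Of these, 7.24% had a UMI after thinning, so a small part of them held these UMIs. The mesothelial-marker cells of eWAT_DFAT had no *Igfbp5* UMI, whereas 64 pericyte-marker cells there were at 98.7 CPM. With all gated cells left out, *Igfbp5* was at 9.52 CPM in iWAT_DFAT, 9.51 in eWAT_DFAT, 13.7 in iWAT_SVF and 1.28 in eWAT_SVF. The log2 ratio of DFAT over SVF then came to -0.52 in iWAT, no longer 2-fold, and to 2.89 in eWAT.

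**Figure D3:**
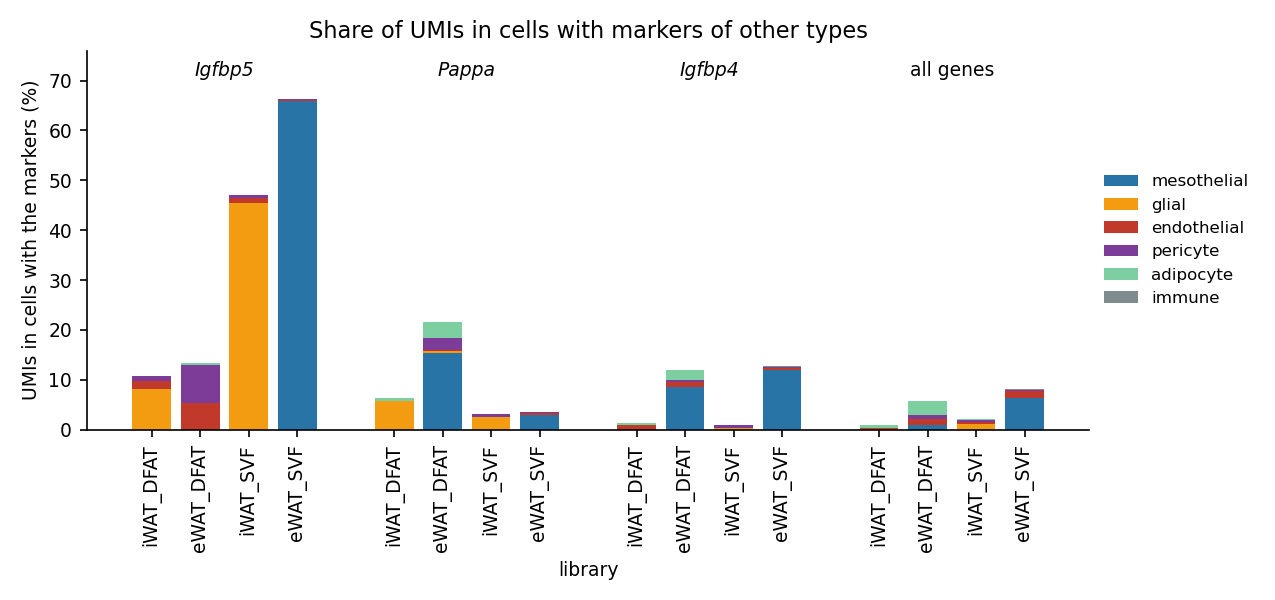
Percent of the UMIs of *Igfbp5*, *Pappa*, *Igfbp4* and all genes that lay in cells with markers of other types, for each library. Glial-marker cells make up 45.5% of the *Igfbp5* UMIs in iWAT_SVF and mesothelial-marker cells 65.8% in eWAT_SVF, against 2.04% and 8.12% of the UMIs of all genes in all gated cells.

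**Figure D4:**
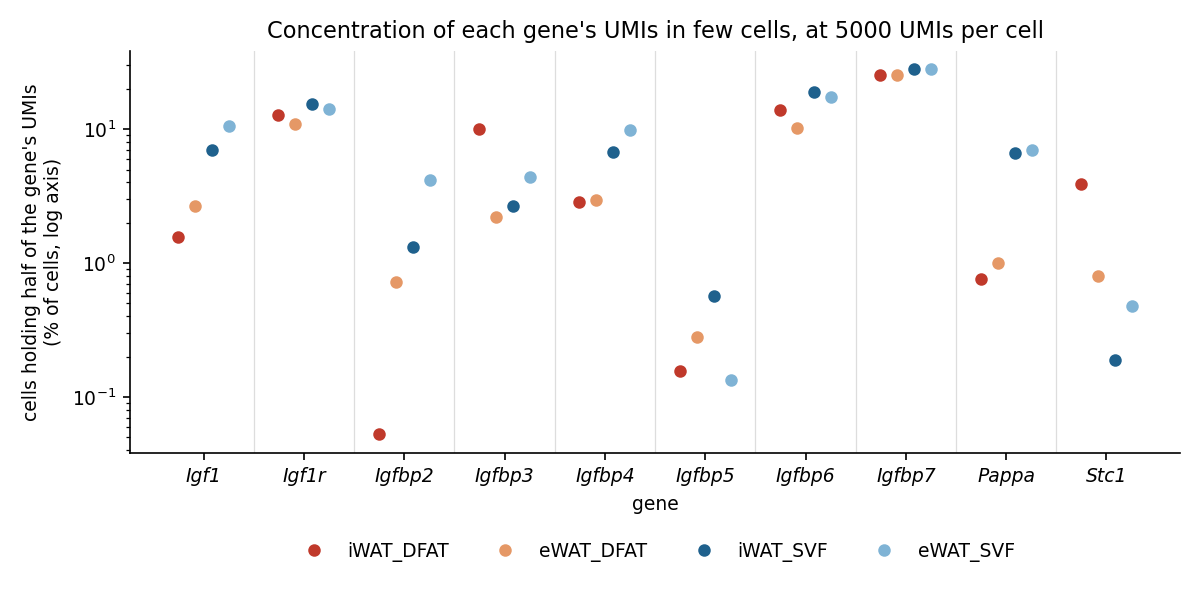
Percent of cells (log axis) that together hold 50% of each gene's UMIs after thinning to 5000 UMIs per cell, by library. *Igfbp7* needs 25.5% to 28.2% of the cells, whereas *Igfbp5* needs 0.133% to 0.566%. The percent also falls with the level of a gene, and is lowest, at 0.0524%, for the few UMIs of *Igfbp2* in iWAT_DFAT. Genes of unlike level are thus not compared for evenness by it.

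The binding proteins were also summed. 3′ counts are not divided by gene length, so the shares below are shares of UMIs. *Igfbp2* to *Igfbp6* together came to 384 CPM in iWAT_DFAT, 195 in eWAT_DFAT, 692 in iWAT_SVF and 1277 in eWAT_SVF. *Igfbp3* made up 46.4% of this sum in iWAT_DFAT, and between 4.47% and 11.6% in the other libraries. *Igfbp6* made up 55.6% in eWAT_DFAT. *Igfbp6* and *Igfbp4* led in iWAT_SVF, with 46.9% and 37.2%, and *Igfbp2* led in eWAT_SVF with 32.7%. The leading transcript was thus *Igfbp3* in iWAT_DFAT, *Igfbp6* in eWAT_DFAT and iWAT_SVF and *Igfbp2* in eWAT_SVF.

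**Figure D5:**
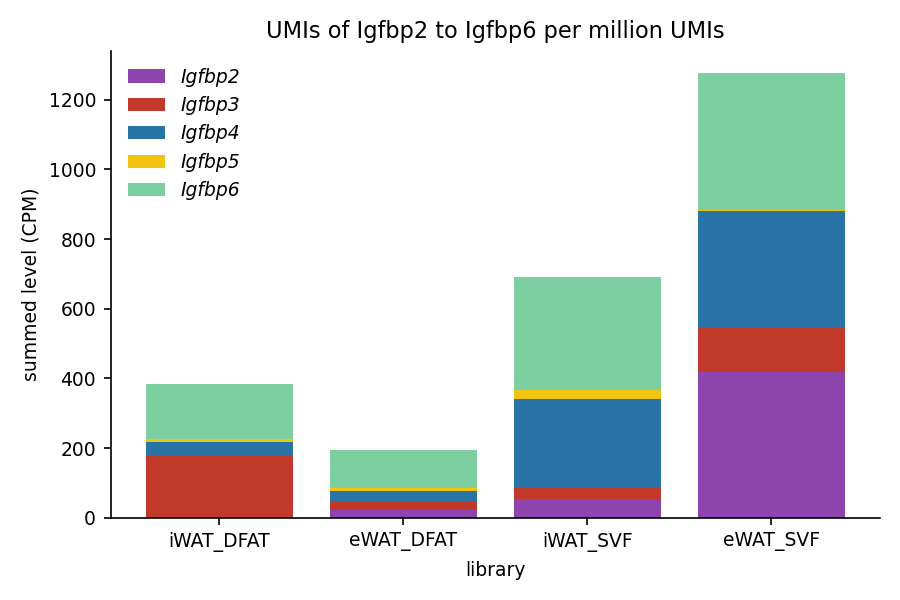
Summed level of *Igfbp2* to *Igfbp6* in CPM for each library, with 1 colour per gene. The sum is 1277 CPM in eWAT_SVF and 195 CPM in eWAT_DFAT, and *Igfbp2* is visible mainly in eWAT_SVF.

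Counted over the 10 genes, 3 of 10 passed 2-fold between the DFAT libraries (2 higher in iWAT, 1 in eWAT), where 12.2% of the 10384 genes at 5 CPM did. Between the SVF libraries 3 of the 9 genes at 5 CPM passed (1 higher in iWAT, 2 in eWAT), against 6.88% of 10135 genes. DFAT against SVF gave 8 of 10 in iWAT (2 higher in DFAT, 6 lower), against 15.1% of 10426 genes. It gave 8 of 10 in eWAT (2 higher, 6 lower), against 13.1% of 10298 genes. Because the genes were chosen for such values, nothing is read from these counts. The median log2 ratio over the genes at 5 CPM was 0.13 between the DFAT libraries and -0.28 between the SVF libraries, against 0.09 and 0.05 over all genes. For DFAT over SVF it was -1.15 in iWAT and -2.19 in eWAT, against 0.09 and 0.07 over all genes.

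The other genes of the axis came from a list of 24 ligands, receptors, binding proteins, proteases and related genes. This list was chosen with earlier results of these data known. Its counts beside the shares of all genes are a description, and nothing is read from them. *Igf2*, *Ins2*, *Igfals* and *Igfbp1* were at most at 0.301 CPM in every library. Of the 13 genes at 5 CPM between the DFAT libraries, 5 were 2-fold higher in iWAT_DFAT and none in eWAT_DFAT, where 8.29% and 3.95% of all genes at 5 CPM were. The 3 largest ratios were those of *Mmp2*, a gelatinase, at 223 against 44.8 CPM, *Igf2bp3*, an RNA-binding protein, at 29.0 against 6.40, and *Htra3*, a secreted serine protease, at 19.0 against 6.39. Between the SVF libraries 1 of 15 was higher in iWAT and 1 in eWAT, against 2.94% and 3.94% of all genes. These were *Igf2bp3* at 30.5 against 7.43 CPM and *Pappa2*, the close relative of *Pappa*, at 1.60 against 5.43. *Plau*, the urokinase gene, had a log2 ratio of -0.72.

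In iWAT 5 of 14 were 2-fold higher in DFAT than in SVF cells and none lower, against 9.91% and 5.18% of all genes. *Mmp3*, stromelysin 1, which can cut IGFBP3, was at 426 against 21.6 CPM, *Mmp2* at 223 against 58.3 and *Igf2bp2*, another RNA-binding protein, at 88.4 against 31.3. In eWAT 1 of 15 was higher and 3 lower in DFAT cells, against 6.44% and 6.67% of all genes. *Mmp3* was at 179 against 19.7 CPM, *Pappa2* at 0.194 against 5.43, and *Adamts1*, a matrix protease, at 40.6 against 169.7. *Pappa2* was thus lower in DFAT cells of eWAT together with *Pappa*, whereas *Mmp3* was higher in DFAT cells of both depots. The list's median log2 ratios were 0.69, 0.07, -0.06 and -0.18 in the order of comparisons above.

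A second list, also chosen with earlier results of these data known, held 29 genes of signalling below the receptor. Between the DFAT libraries 2 of 28 genes at 5 CPM were 2-fold higher in iWAT and 3 in eWAT. The shares of all genes given above for the 4 comparisons are the background of this list too, and with at most 5 of its genes past 2-fold in any comparison nothing particular to it is read. *Socs3*, a cytokine-induced inhibitor of signalling, was at 40.1 against 9.38 CPM, *Socs2*, which restrains growth hormone signalling, at 23.3 against 90.3, and *Pik3cb*, a catalytic PI3-kinase subunit, at 3.62 against 13.1. Between the SVF libraries none of 27 was 2-fold higher in iWAT and 1 in eWAT, *Socs3* at 8.59 against 18.8 CPM. The next values were log2 ratios of 0.89 for *Grb14* and -0.55 for *Tsc2*. In iWAT 2 of 27 were higher and 2 lower in DFAT cells. *Socs3* was at 40.1 against 8.59 CPM, *Pik3cb* at 3.62 against 12.2 and *Irs2*, an insulin receptor substrate, at 35.7 against 13.5. In eWAT 2 of 28 were higher and 3 lower in DFAT cells. *Socs2* was at 90.3 against 33.3 CPM, *Grb10*, an adaptor that dampens IGF1R signalling, at 80.4 against 198, and *Enpp1* at 10.7 against 4.95. The median log2 ratios of this list were 0.23, -0.11, 0.27 and -0.07.

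The members were also read by cell-cycle activity, which differs between cells of 1 library. Cells were split into 5 equal groups by their thinned UMIs of 30 cycle genes, with at most 2 such UMIs in the lowest and at least 15 in the highest group. Of the 40 gene and library pairs, 32 were lower in the most cycling group with a counting interval below 0, 3 were higher, and 5 had an interval that held 0 or no lower bound. Of the 36 pairs at 5 CPM in the library, 30 were lower and 3 higher. Among all genes at 5 CPM other than the cycle genes, 25.1% were lower in iWAT_DFAT, 24.1% in eWAT_DFAT, 20.5% in iWAT_SVF and 20.8% in eWAT_SVF, and 31.4%, 26.7%, 28.2% and 25.9% were higher. The median log2 ratio over all these genes was 0.04, 0.01, 0.05 and 0.03, against -0.59, -0.87, -0.41 and -0.42 over the members. A counting interval narrows with the UMIs of a gene, so these shares depend on level. It also treats UMIs as independent, so the spread between cells lies outside it, and a few cells can make a call. *Igfbp5* in eWAT_SVF was at 1.04 CPM in the most against 4.60 in the least cycling group, and 1 cell held 18 of its 173 thinned UMIs. *Stc1* in iWAT_SVF was at 0.27 against 3.50 CPM, and 1 cell held 17 of its 86. Which group held these cells was not determined. By counting error alone, *Igf1*, *Igfbp4*, *Igfbp5*, *Igfbp6*, *Igfbp7* and *Pappa* were lower in the most cycling group in all 4 libraries. *Igfbp7* had log2 ratios of -0.35 to -0.63, *Igfbp4* of -0.36 to -2.01 and *Igfbp5* of -0.72 to -4.02. *Igf1r* was the exception, with log2 ratios of -0.07 to 0.31, and was higher in the most cycling group in 3 libraries. Cycle UMIs take up part of a fixed depth, and cells of other types may not be spread evenly over the groups, which was not measured. The part of these in the ratios was not tested.

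Genes that varied most like each member across cells were sought among 5120 genes at 20 CPM or more in every library, by the mean over the 4 libraries of Pearson's r on log counts of thinned cells. The values share library and depth and are a description. The means were low, with the highest mean r at 0.37 for *Igfbp7* with *Sparc*, a matrix glycoprotein gene (0.32, 0.40, 0.37 and 0.39 in the 4 libraries). Next for *Igfbp7* came *Bgn* and *Serping1* at 0.24 and 0.23. *Igfbp4* went with *Col3a1*, *Serping1* and *Sfrp1* at 0.27, 0.25 and 0.23, and *Igf1* with *Sfrp1* and *Col3a1* at 0.19 and 0.15. *Igf1r* went with the nuclear RNA *Malat1* and the long genes *Lpp* and *Rbms3* at 0.22, 0.20 and 0.20. *Igfbp6* went with *Timp2*, *Timp1* and *Mfap5* at 0.20, 0.17 and 0.16, and *Igfbp2* with *Tagln*, *Acta2* and *Cemip* at 0.13, 0.12 and 0.11. *Igfbp3* (*Gas1*, *Col3a1* and *Vegfd*), *Pappa* (*Lpp*, *Prkg1* and *Magi1*) and *Stc1* (*Akr1b3*, *Errfi1* and *Nupr1*) had a mean r of at most 0.12. For *Igfbp5* the leading gene was *Tenm3*, whose r was 0.46 in iWAT_SVF and between -0.02 and 0.20 elsewhere, followed by *Gpm6b* and *Uchl1*. Within iWAT_SVF alone, among genes at 20 CPM or more there, *Igfbp5* had higher r, at 0.57 with *Edil3*, 0.56 with *Csmd1* and 0.55 with *Cadm1*.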

How the data were processed

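UMI counts per gene and barcode, made by the authors with Cell Ranger on mm10, were used as deposited: whole numbers that precede cell calls and normalization. The submitters' processing notes name Cell Ranger 7.0.0, whereas the file headers name 7.1.0 for 3 libraries and 4 for iWAT_SVF. The study's CellBender, DoubletFinder and clustering steps were not run here, and no doublets were called or removed. In 1 of the 10 alternatives described in the closing section the cells with the most UMIs were left out, which does not identify doublets.

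Cells were barcodes with 5000 to 75000 UMIs, 200 to 7500 genes and under 10% mitochondrial UMIs. Gene counts were summed over the cells of a library and scaled to 1000000 UMIs. With 1 library per group no test between groups was made, and cells were not used as replicates. A count of 0 allows up to 3 counts, or 0.0151 to 0.0163 CPM, for counting error only. Other cell types were set apart by marker counts, not clusters. Cells were thinned to 5000 UMIs for shares and correlations.

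All 10 members are named, together with the 3 genes of each pathway list with the largest ratio in a comparison and the 3 genes most like each member, of which 1 is not reported here. The members and lists were chosen with earlier results of these data known. The ratio script was tested on simulated data. Intervals were computed with scipy 1.17.1, tables with pandas 2.3.3 and numpy 2.4.6 under Python 3.11.15, and plots with matplotlib 3.10.9.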

Additional observations from a re-analysis of the deposited data

Results flagged for a closer look

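In 5 of the 10 genes a ratio between 2 libraries had opposite signs in 2 settings, with both counting intervals away from 0. The share of all genes that do so was not counted. Counting intervals are narrow at these UMI numbers, so small ratios qualify, and nothing is read from this count of genes. With 1 library per group none of these differences was tested. For *Igfbp3* the ratio of iWAT over eWAT was 2.98 on the log2 scale in DFAT cells and -2.08 in SVF cells, a difference of 5.06, and the ratio of DFAT over SVF cells, from the same 4 levels, was 2.53 in iWAT and -2.53 in eWAT, a difference of 5.05. For *Stc1* the depot ratio was 2.08 in DFAT and -0.63 in SVF cells, a difference of 2.71, with both SVF levels under 5 CPM. *Igfbp6* differed by 0.81 (0.53 and -0.28) and *Igfbp4* by 0.64 (0.27 and -0.37), both within 2-fold in each kind of cell. For *Igfbp5* the ratio of DFAT over SVF cells was -1.26 in iWAT and 1.57 in eWAT, a difference of -2.83. Glial-marker cells held 45.5% of the *Igfbp5* UMIs of iWAT_SVF and mesothelial-marker cells 65.8% of those of eWAT_SVF. With the cells of all 6 marker gates left out of every library the ratios were -0.52 and 2.89. The mesothelial gate does not separate the types cleanly, as the *Pdgfra* shares above show.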

How the results depend on the processing

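The 40 ratios of the 10 genes were computed again under 10 alternatives: a lower limit of 500 UMIs, a mitochondrial limit of 20%, no limit on genes per cell, free RNA subtracted at 10%, 2 other scalings, the mean of the CPM of each cell, thinning, marker-gated cells left out and the cells with the most UMIs left out. Of these 400 values, 270 stayed within the counting interval, 130 moved outside it and 0 of the called ones changed sign. Only 2 moved by over 1.5-fold, both for *Igfbp5* with marker-gated cells left out, from -1.26 to -0.52 in iWAT and from 1.57 to 2.89 in eWAT. The first was the 1 call lost. The number of genes past 2-fold stayed within 1.5 times its value under each alternative. With 1 CPM in place of 5 CPM in the higher library, 10.5% in place of 6.88% of all genes passed 2-fold between the SVF libraries. No paired analysis was possible because each group holds 1 library. With 1 library per group, the spread between cultures is unknown, and the intervals given cover counting error only.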

Other observations

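*Igfbp5* and *Stc1* varied together across cells in eWAT_DFAT, a pattern picked out after the values were seen. Pearson's r across its 6464 thinned cells was 0.31, the highest of any pair of the 10 genes in any library. Cells with UMIs of both were 37 in eWAT_DFAT (0.572%, exact binomial interval 0.403% to 0.788%), where the product of the separate shares is 0.0705%. Most cells with either transcript lacked the other, since 139 had *Igfbp5* and 212 *Stc1*. In iWAT_DFAT 26 cells had both (0.341%, against a product of 0.280%), in iWAT_SVF 8 (0.108% against 0.0362%) and in eWAT_SVF 1 (0.0148% against 0.0120%). The 64 pericyte-marker cells of eWAT_DFAT were high in both genes by summed level, at 98.7 CPM of *Igfbp5* and 35.8 CPM of *Stc1*. The cells outside all marker gates were at 9.51 and 8.70 CPM. After thinning, 21.9% of the pericyte-marker cells had an *Igfbp5* UMI and 14.1% an *Stc1* UMI, so these levels rest on a minority of them. The part of the pericyte-marker cells in the correlation was not tested. Among genes at 20 CPM or more in that library, which leaves out *Stc1*, the highest r of *Igfbp5* was 0.285, with *Il11*, an interleukin gene. Both genes also varied with *Akr1b3*, an aldose reductase gene, at r of 0.27 with *Igfbp5* and 0.32 with *Stc1*, and with *Gem*, a small GTPase gene, at 0.27 and 0.33. *Pappa* and its substrate gene *Igfbp4* were found together in 0.472% of iWAT_DFAT, 0.789% of eWAT_DFAT, 10.0% of iWAT_SVF and 12.4% of eWAT_SVF cells after thinning. The products of the separate shares were 0.290%, 0.358%, 8.91% and 13.5%. The share thus lay above the product in 3 libraries and below it in eWAT_SVF. These shares include marker-gated cells. Mesothelial-marker cells had thinned *Pappa* and *Igfbp4* shares of 27.3% and 69.7% in eWAT_DFAT (66 cells). In eWAT_SVF (497 cells) they were 12.3% and 90.1%. The part of these cells in the shares and products was not tested.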
